A study of Mus musculus with 4 samples.

Results

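The NF-kB loci were 10 genes of this signalling pathway: the subunits Nfkb1, Nfkb2, Rel, Rela and Relb, the inhibitors and co-regulators Nfkbia, Nfkbie, Tnfaip3 and Bcl3, and the ligand Tnf. They are 10 of 21938 protein-coding genes. A peak was assigned to a gene when its summit lay in the gene body or within 50 kb of it, a region called the window here. The windows held 47 of 21831 RUNX1 peaks of the list labelled +DOX and 38 of 18389 of the list labelled -DOX. Intervals reaching 200 bp beyond each summit were joined across both lists where they met, which gave 50 of 24972 merged RUNX1 sites in these windows.

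The study mapped RUNX1, a transcription factor of blood development, by ChIP-seq in floating hematopoietic progenitors made from mouse ESCs in vitro, at day 2. The genotype of every library, untreated ones included, was Tet-on dominant-negative FOS (dnFOS), a transgene that is switched on by Doxycycline (DOX) and gives a peptide that blocks AP-1. There was 1 RUNX1 library with DOX and 1 without, so differences between them have no replicate check and no p-value is given. The series also holds 2 libraries for H3K27me3, a histone mark of repressed chromatin.

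The labels of the libraries limit what can be said about direction. The run name inside each RUNX1 peak list gives the opposite treatment to its label, so the lists are called labelled +DOX and labelled -DOX, and every direction turns round if the libraries are exchanged. For H3K27me3 the title and the treatment disagree. These libraries are therefore in no condition and are called titled untreated and titled DOX. Their protocol names an antibody against RUNX1 although the antibody label is H3K27me3. The depth of the libraries is unknown because the lists hold no read counts. Marker genes did not tell the cell type apart. Of the markers, 6 of 10 genes of hematopoietic progenitors had a RUNX1 peak within 1500 bp of a start in each list, but Kit, Cd34, Ptprc and Gfi1b had none. Of 5 endothelial genes 3 had such a peak in each list, and of 5 pluripotency genes 1 had it in the list labelled +DOX and 0 in the list labelled -DOX. Over all protein-coding genes 46.9% and 43.4% had one, and the shares of progenitor and endothelial markers were the same. A peak is binding and not expression.

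NF-kB is a family of dimeric transcription factors that is held inactive in the cytoplasm by inhibitor (IkB) proteins. Ligands such as TNF activate IkB kinases, the inhibitors are degraded, and the dimers enter the nucleus and bind short DNA elements known as κB sites. Several of the best known targets are the pathway's own genes, among them the inhibitors, which gives negative feedback, and in blood cells the pathway serves inflammatory responses, survival and lymphoid development.

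Reference sequence at the summits that the results turn on is given here for the mm10 build (GRCm38), plus strand, 5′ to 3′. Capitals mark matches on either strand to the κB consensus, the RUNX consensus TGTGGTT and its shorter form TGTGGT or TGCGGT, the ETS consensus CAGGAAA or CAGGAAG or CCGGAAA or CCGGAAG and the PU.1 consensus GAGGAAGT. The short RUNX form is contained in the long one, and the ETS and PU.1 forms share a GGAA core. Stretches shorter than 200 bp were cut back to leave out annotated UTRs. The first 5 are the sites with a κB match, all of them at or in an NF-kB gene.
Rel start, chr11:23770992-23771191: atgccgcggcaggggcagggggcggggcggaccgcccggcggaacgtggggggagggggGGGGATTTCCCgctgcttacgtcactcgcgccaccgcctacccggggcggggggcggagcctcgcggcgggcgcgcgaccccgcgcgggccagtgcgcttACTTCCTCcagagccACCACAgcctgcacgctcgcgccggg
Relb start, chr7:19629439-19629609: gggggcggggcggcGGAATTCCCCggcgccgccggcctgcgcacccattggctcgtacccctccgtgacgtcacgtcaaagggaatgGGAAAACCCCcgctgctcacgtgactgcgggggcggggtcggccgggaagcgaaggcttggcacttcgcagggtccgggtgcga
Nfkbia intron, chr12:55491915-55492114: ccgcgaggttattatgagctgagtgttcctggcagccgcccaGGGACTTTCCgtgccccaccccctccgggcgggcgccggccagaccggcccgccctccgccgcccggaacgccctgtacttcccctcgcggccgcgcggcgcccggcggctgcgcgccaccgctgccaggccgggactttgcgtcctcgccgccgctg
Tnfaip3 start, chr10:19015411-19015532: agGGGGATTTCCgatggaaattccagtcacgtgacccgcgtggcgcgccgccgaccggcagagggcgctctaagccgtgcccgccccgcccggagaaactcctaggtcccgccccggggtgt
Bcl3 intron, chr7:19817506-19817705: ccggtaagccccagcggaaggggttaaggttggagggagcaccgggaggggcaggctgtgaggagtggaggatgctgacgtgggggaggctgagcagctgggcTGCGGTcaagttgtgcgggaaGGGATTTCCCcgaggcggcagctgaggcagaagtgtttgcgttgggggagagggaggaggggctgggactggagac
The next is the site at a start of an NF-kB gene with the highest percentile.
Nfkb2 start, chr19:46304218-46304319: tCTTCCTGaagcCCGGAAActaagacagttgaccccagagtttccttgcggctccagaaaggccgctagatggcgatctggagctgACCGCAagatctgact
The last holds the RUNX consensus TGTGGTT and lies in Manba, inside the Nfkb1 window, where all 4 lists had a peak.
Manba intron, chr3:135554181-135554380: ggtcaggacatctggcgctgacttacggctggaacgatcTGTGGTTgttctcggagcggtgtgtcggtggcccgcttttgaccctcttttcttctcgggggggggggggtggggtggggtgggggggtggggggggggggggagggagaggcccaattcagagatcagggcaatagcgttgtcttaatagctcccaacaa

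RUNX1 peaks were present in the windows of 10 of 10 genes in both lists. Over all protein-coding genes, 75.7% had a peak in the window in the list labelled +DOX and 73.5% in the list labelled -DOX. Within 1500 bp of a transcription start of the gene itself, 8 of 10 had a peak in each list, beside 46.9% and 43.4% of all protein-coding genes. The 8 genes were all members but Nfkbie and Tnf. The median gene had 5.5 peaks in the list labelled +DOX and 4.5 in the list labelled -DOX, and the median protein-coding gene had 2 in each. The windows of the 10 genes were also richer in genes. They held the 5′ ends of a median of 5.5 coding genes, beside 3 over all protein-coding genes.

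The number of merged sites went from 1 in the Rel window to 9 in the Nfkbie window, with a median of 5, and the median protein-coding gene had 3. Tnfaip3 and Nfkbia had 2 sites each, Nfkb1 had 3 and Bcl3 had 4. Relb had 6, Tnf had 7, and Nfkb2 and Rela had 8 each. Of all protein-coding genes, 95.1% had fewer sites than Nfkbie, 92.2% fewer than Nfkb2 or Rela, and 22.0% fewer than Rel. The gene content of the windows varied as well. The windows of Nfkb1, Rel, Nfkbia and Tnfaip3 held the 5′ end of 1 coding gene, the gene itself, and 1 to 3 sites. A further transcript start of Manba, whose 5′ end is not counted there, also lay in the Nfkb1 window. The other windows held the 5′ ends of 5 coding genes (Bcl3) to 10 (Tnf) and 4 to 9 sites. Of the 50 sites, 40 (80.0%) lay within 1500 bp of a start of any gene, beside 53.9% of all RUNX1 sites. The nearest start was that of the NF-kB gene itself for 9 of the 50.

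**Figure D1:**
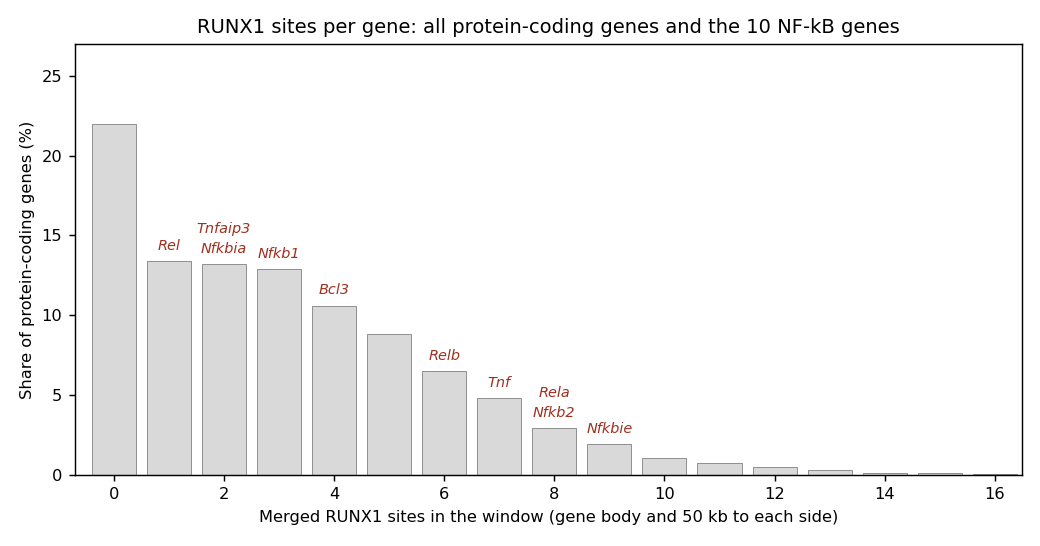
Bars give the share of all protein-coding genes (y axis, percent) by the number of merged RUNX1 sites in the window (x axis), and names mark the NF-kB genes. Rel stands at 1 site and Nfkbie at 9, and 6 of the 10 genes stand above the median of 3 by 1 to 6 sites.

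**Figure D2:**
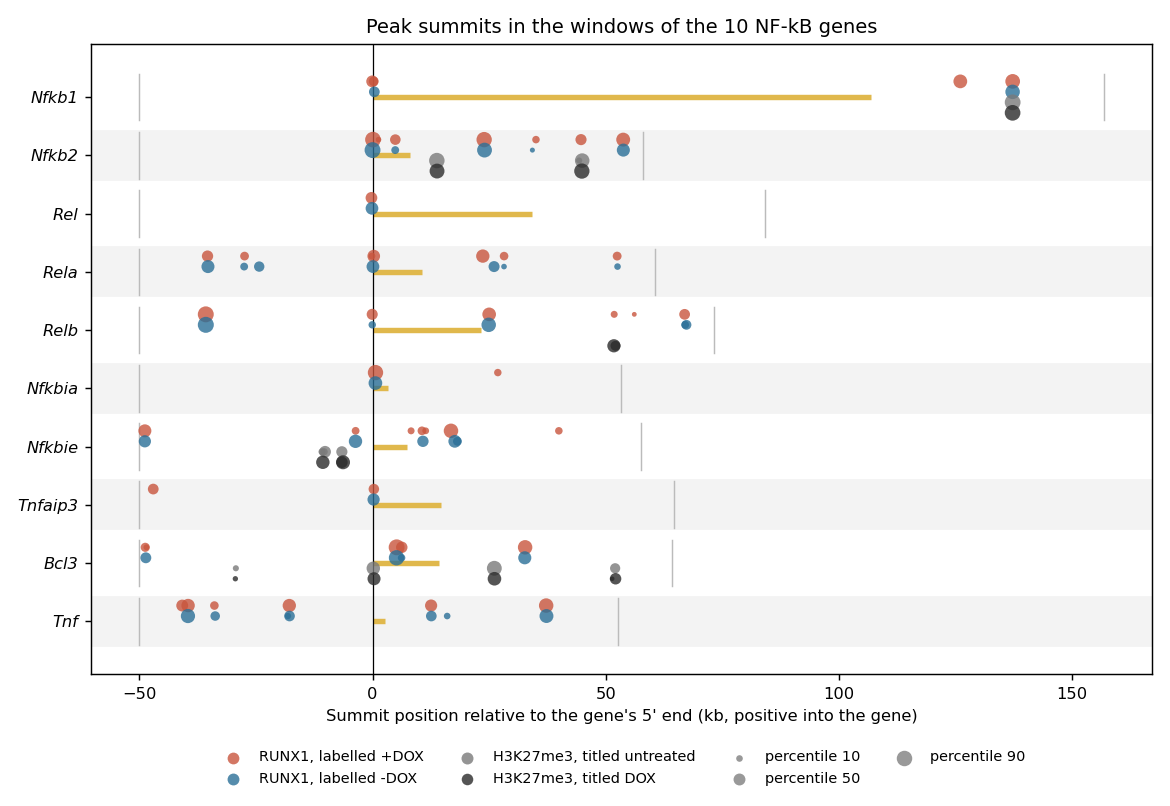
Each point is a peak summit, placed by its distance in kb from the 5′ end of the gene (x axis) and sized by its percentile in its own list, with the lists in separate lines and colours, the gene body as a bar and the ends of the window as grey ticks. RUNX1 summits of both lists lie at the start of Nfkb1, Nfkb2, Rel, Rela, Relb, Nfkbia and Tnfaip3 and inside Bcl3, and H3K27me3 summits lie at the start of Bcl3 only among the 10 genes.

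Each peak is described by its fold enrichment, the ratio of its signal to the local background of the peak calling. The percentile of its -log10 q in its own list is also given, with tied peaks placed at the middle of their ranks. Percentiles rank a peak inside one list and are not amounts of binding.

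Among the subunits, Nfkb1 encodes p105, the precursor of p50. The gene lies at chr3:135584655-135691547 on the minus strand. Its start carried RUNX1 peaks in both lists, with the higher summit of the list labelled +DOX at chr3:135691624, 77 bp upstream of the 5′ end. Fold enrichment was 5.09 in the list labelled +DOX, at percentile 49.3, and 4.88 in the list labelled -DOX, at percentile 39.1. The list labelled +DOX had another summit in the same merged site, at percentile 31.3. Only the peak of that weaker summit overlapped the peak of the list labelled -DOX. The ranks at this start are middling, and the other 2 sites of the window lay beyond the 3′ end, in the neighbour Manba.

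Nfkb2 encodes p100, the precursor of p52 in the non-canonical pathway, and lies at chr19:46304320-46312385 on the plus strand. The site at its 5′ end ranked highest of all sites at a start of the 10 genes. Fold enrichment was 8.19 at percentile 92.0 in the list labelled +DOX and 9.72 at percentile 95.1 in the list labelled -DOX. A second site lay in a coding exon, 4886 bp into the gene, with fold enrichment of 3.97 at percentile 37.9 and of 3.33 at percentile 17.4. Another lay 1280 bp into the gene, in an exon of the non-coding gene AC114539.1. Its summit stood 5 bp from a start of that gene and 96 bp from a start of Nfkb2. It was only in the list labelled +DOX, at percentile 4.74. Nfkb2 thus had a site near the top of both lists and a site near the bottom of 1 list within 1500 bp of each other. The stretch printed for its start held 2 matches to the ETS consensus and 1 to the short RUNX form.

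Rel encodes c-Rel, a subunit most abundant in hematopoietic cells, and lies at chr11:23736847-23770970 on the minus strand. Its window held 1 site, at the start and in both lists. Fold enrichment was 4.84 at percentile 48.4 in the list labelled +DOX and 5.43 at percentile 58.2 in the list labelled -DOX. The κB matches at this site overlap each other at chr11:23771051-23771060 and chr11:23771052-23771061, and a match to the PU.1 consensus stands at chr11:23771151-23771158.

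Rela encodes p65, the subunit of the classical p50/p65 dimer, and lies at chr19:5637483-5648130 on the plus strand. The site at its start had a fold enrichment of 5.69 at percentile 57.5 in the list labelled +DOX and of 5.35 at percentile 59.0 in the list labelled -DOX. The list labelled +DOX held a further summit there at percentile 11.6. The start of Rela differed between the lists by 1.45 percentile points, the smallest difference at a start of the 10 genes. The other 7 sites of its window lay nearer to starts of other genes.

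Relb encodes the transcriptionally active partner of p52 and lies at chr7:19606217-19629438 on the minus strand. Its start had a fold enrichment of 4.53 at percentile 42.2 in the list labelled +DOX and of 3.65 at percentile 14.7 in the list labelled -DOX. The rank was 27.5 points higher in the list labelled +DOX. The κB matches lie at chr7:19629453-19629462 and chr7:19629526-19629535, on both sides of the summit at chr7:19629510.

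Of the inhibitors, Nfkbia encodes IkBα, which retains p65-containing dimers in the cytoplasm and is itself a target of NF-kB. The gene lies at chr12:55489410-55492647 on the minus strand. A site in its intron, 632 bp from the 5′ end and 205 bp from another of its starts, was in both lists and ranked higher in the list labelled +DOX. Fold enrichment was 7.65 at percentile 88.2 in the list labelled +DOX and 5.59 at percentile 68.5 in the list labelled -DOX. A second site, 26863 bp from the 5′ end and beyond the gene, was only in the list labelled +DOX, at percentile 14.7. It was the only site for which an NF-kB gene was the nearest start and which had a summit in 1 list.

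Tnfaip3 encodes A20, a ubiquitin-editing enzyme that ends NF-kB signalling, and lies at chr10:19000910-19015657 on the minus strand. The site at its start had a fold enrichment of 4.67 at percentile 37.3 in the list labelled +DOX and of 5.59 at percentile 53.2 in the list labelled -DOX. A site 47025 bp upstream was only in the list labelled +DOX, with fold enrichment 5.03 at percentile 39.3, and lay 24496 bp from the nearest start. This upstream site held the short RUNX form, the ETS consensus and the C/EBP consensus TTGCNNAA.

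Nfkbie encodes IkBε and lies at chr17:45555703-45563169 on the plus strand. Its window held the most sites, 9, but 0 had Nfkbie as the nearest start and none lay in the gene. The nearest one, 3654 bp upstream, was in both lists. There the fold enrichment was 3.71 at percentile 16.7 in the list labelled +DOX and 5.27 at percentile 65.0 in the list labelled -DOX. This site was ranked lower in the list labelled +DOX by the widest margin of the 30 shared sites, with a difference of -48.2 points. Its nearest start, 2372 bp away, was that of Tmem151b.

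Bcl3 encodes an atypical IkB protein that binds p50 and p52 dimers in the nucleus, and lies at chr7:19808462-19822770 on the minus strand. The 4 sites of its window were all in both lists. The strongest lay in an intron, 5164 bp into the gene, with a fold enrichment of 10.9 at percentile 95.2 in the list labelled +DOX and of 8.14 at percentile 88.4 in the list labelled -DOX. It stood 1610 bp from a start of Bcl3, just outside the limit of 1500 bp, and 1053 bp from the start of the non-coding gene Gm16174. Another intronic site, 6263 bp into the gene and 511 bp from a start of a shorter Bcl3 transcript, had a fold enrichment of 4.46 at percentile 46.0 and of 3.57 at percentile 15.0. That difference of 31.0 points was the widest in favour of the list labelled +DOX among the 30 shared sites. No RUNX1 summit lay within 1500 bp of the 5′ end of Bcl3, so the count of a start peak for this gene rests on the shorter transcript.

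Tnf, the ligand, lies at chr17:35199381-35202007 on the minus strand, between Lta and Ltb, which encode lymphotoxins. None of the 7 sites of its window lay in Tnf or had it as the nearest start. A site 12559 bp from the 5′ end, nearest to Lst1, had a fold enrichment of 5.03 at percentile 52.6 in the list labelled +DOX and of 4.67 at percentile 38.6 in the list labelled -DOX. It ranked higher in the list labelled +DOX.

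Of these 50, 30 (60.0%) had summits of both lists, 14 (28.0%) only in the list labelled +DOX and 6 (12.0%) only in the list labelled -DOX. The shares over all RUNX1 sites were 56.8%, 28.4% and 14.8%, so the division in the NF-kB windows was near that of the rest. With the libraries exchanged, 6 sites become particular to the treated and 14 to the untreated library. The list labelled +DOX is the longer one. When it was shortened to the strongest 18389 peaks, 6 sites were only in it and 6 only in the other. Of the 20 sites with a summit in 1 list, 3 were overlapped by a peak of the other list.

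For the 9 sites with an NF-kB gene as the nearest start, 8 were in both lists, 1 only in the list labelled +DOX and 0 only in the list labelled -DOX. Sites of 1 list were low in rank. Those only in the list labelled +DOX had a median percentile of 15.2 (range 1.43 to 77.9), beside 27.1 over all such sites. Those only in the list labelled -DOX had a median of 30.2 (range 2.32 to 59.2), beside 23.1. The shared sites had a median of 60.0 for the higher of their percentiles, beside 70.5 over all shared sites. Taking the higher value raises the figure for shared sites, and a site of 1 list has only 1 percentile. A peak near the threshold of its list is also more easily absent from the other list. The lower rank of sites of 1 list is thus partly built into the classes.

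Among the 30 shared sites, 18 (60.0%) had a higher percentile in the list labelled +DOX, beside 58.0% of the 14177 shared sites of the genome. The median difference was 6.25 points (range -48.2 to 31.0), beside 1.83 over all shared sites, of which the 10th and 90th percentiles were -21.3 and 32.2. The inhibitors did not all rank in 1 direction: Nfkbia and both intronic sites of Bcl3 ranked higher in the list labelled +DOX, and Tnfaip3 and the site upstream of Nfkbie ranked lower. Nor did the subunits, with Relb higher in the list labelled +DOX and Rel, Rela and the start of Nfkb2 lower. For Nfkb1 the direction depends on the summit taken from the list labelled +DOX. The stronger summit ranked higher than that of the other list (49.3 against 39.1). The summit whose peak overlaps the peak of the other list ranked lower (31.3). With 1 library per condition, how far such ranks vary between repeats is unknown.

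**Figure D3:**
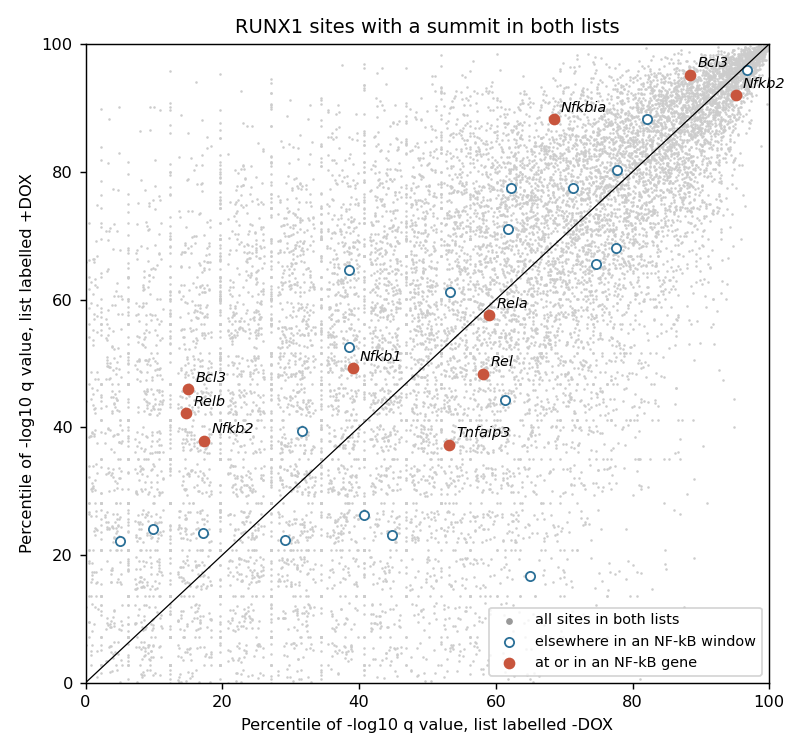
Each point is a RUNX1 site shared by the lists, placed by the percentile of its -log10 q in the list labelled -DOX (x axis) and in the list labelled +DOX (y axis); the line marks equal ranks. Filled points are sites at or in an NF-kB gene, open points are other sites in the windows and grey points are all 14177 shared sites. Relb (14.7 and 42.2) and Nfkbia (68.5 and 88.2) stand above the line and Tnfaip3 (53.2 and 37.3) below it.

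The κB consensus was found in the 200 bp at the summit of 5 of the 50 sites (10%), beside 3.33% of all RUNX1 sites. Its 5 sites were the starts of Rel, Relb and Tnfaip3, the intron of Nfkbia and the stronger site of Bcl3. The shares were also taken by distance from a start. Among sites within 1500 bp of any start the match was at 5 of 40 in the windows and at 3.91% of all. Among the more distant sites it was at 0 of 10 and at 2.65% of all. A κB match says that the letters stand there. NF-kB binding was not measured.

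The RUNX consensus TGTGGTT was at 2 of 50 sites (4.0%), beside 14.2% of all sites, and at none of the starts of the 10 genes. Within 1500 bp of a start it was at 1 of 40, beside 6.01%, and farther away at 1 of 10, beside 23.8%. In a window of 400 bp it was at 6 of 50 sites (12.0%), beside 18.1%. Of the 9 sites nearest to an NF-kB gene, 0 held it in the 200 bp window and 2 in the 400 bp window. The short RUNX form was at 14 of 50 (28.0%), beside 37.4%. It was found at 5 of the 9 sites nearest to an NF-kB gene, the starts of Nfkb2, Rel and Rela among them. The ETS consensus was at 21 of 50 sites (42.0%), beside 29.9%. Near starts it was at 16 of 40, beside 26.9%, and elsewhere at 5 of 10, beside 33.4%. Most of these matches were at neighbouring genes, since the ETS consensus was at 2 of the 9 sites nearest to an NF-kB gene. The higher ETS share depends on the window. At 100 bp it was 18.0% beside 18.1% of all sites, and at 400 bp 52.0% beside 43.6%. No match says only that these letters are not in this window.

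AP-1, whose binding dnFOS blocks, had its consensus TGAGTCA at 2 of 50 sites (4.0%), beside 4.97% of all sites. One of them, at the start of Hsp90ab1 in the Nfkbie window, had a summit only in the list labelled -DOX. A peak of the list labelled +DOX overlapped it. The other, in the Tnf window, was in both lists, at percentile 64.6 in the list labelled +DOX and 38.5 in the list labelled -DOX. In the 200 bp window 0 of the 9 sites nearest to an NF-kB gene held it, and in a window of 400 bp 1 of 9 did. The PU.1 consensus was at 3 of 50 sites (6.0%), beside 4.66%. The C/EBP consensus was at 2 of 50 (4.0%), beside 6.46%, and the GATA consensus AGATAA at 4 of 50 (8.0%), beside 11.7%.

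**Figure D4:**
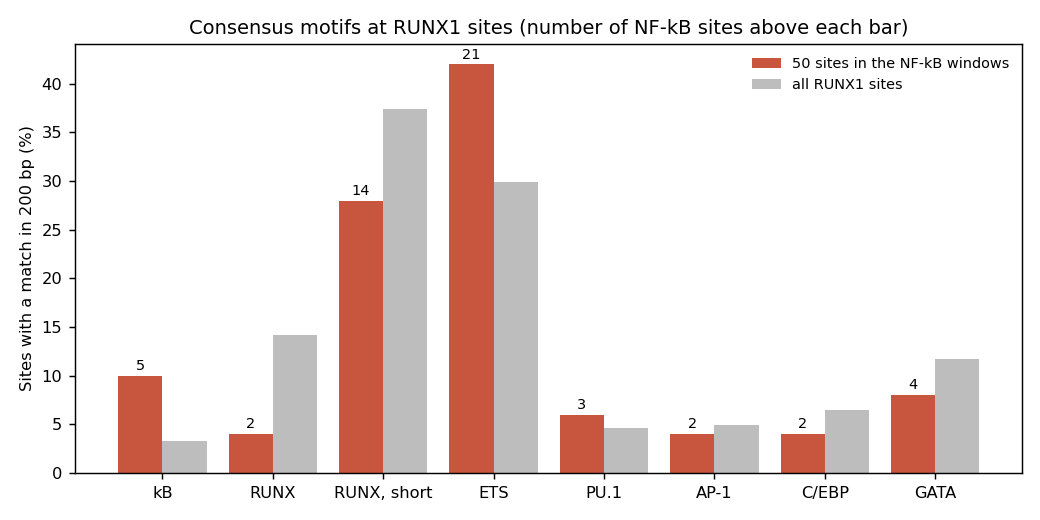
Bars give the share of sites (y axis, percent) with a match to each consensus (x axis) in the 200 bp at the summit, for the 50 sites of the NF-kB windows and for all 24972 RUNX1 sites, with the number of NF-kB sites above each bar. The κB bar is 10% beside 3.33%, the ETS bar 42.0% beside 29.9% and the RUNX bar 4.0% beside 14.2%.

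Promoters were also read independently of the peaks, from RefSeq entries on GRCm38 that run from 250 bases before to 50 after a start. Of the 10 genes 8 had an entry, and Nfkb1 and Relb had none. The κB consensus stood in entries of 6 of the 8, Nfkb2, Rel, Nfkbia, Nfkbie, Tnfaip3 and Bcl3, beside 5.14% of the 27025 genes of the table, where a gene counts if any of its entries has a match. By entry it was 8 of 11, beside 4.51% of all 32851 entries. Rela and Tnf held no match in these 300 bases. Tnfaip3 held 2 matches in its entry, and Nfkb2 and Rel also had entries with multiple matches, some of them overlapping. The RUNX consensus was in 0 of 8, beside 6.09% of genes. The AP-1 consensus was in 2 of 8, Nfkbie and Tnfaip3, beside 5.95% of genes. At Nfkbie the κB match stood in a promoter without a RUNX1 peak in either list.

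H3K27me3 peaks were in the windows of 4 of 10 genes in the list titled untreated and of 5 of 10 in the list titled DOX, beside 33.2% and 35.3% of all protein-coding genes. The median peak of these lists spanned 180 bp and 122 bp. Only Bcl3 had one within 1500 bp of its own start, 1 of 10 in each list, beside 11.7% and 11.1%. At Bcl3 the summits were at chr7:19822608 and chr7:19822452, both in a coding exon, 162 and 318 bp from the 5′ end. Fold enrichment was 6.65 at percentile 66.2 in the list titled untreated and 6.09 at percentile 61.6 in the list titled DOX. The RUNX1 sites of Bcl3 lay 5164 and 6263 bp into the gene, so the RUNX1 and H3K27me3 peaks of this gene did not coincide.

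The other H3K27me3 peaks of the windows were at neighbours. In the Nfkb2 window they were at the start of Psd, with percentiles 89.9 and 82.6, and in 2310034G01Rik. The Nfkbie window held 4 peaks in the list titled untreated and 3 in the list titled DOX, all nearest to Tmem151b. In the Relb window 2 peaks, both in the list titled DOX alone, were at the starts of Zfp296 and Gemin7. Of the 50 RUNX1 sites, 3 (6.0%) lay under an H3K27me3 peak of either list, beside 7.76% of all RUNX1 sites.

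One of those 3 was the site in the Manba intron, 137266 bp from the 5′ end of Nfkb1, which had a peak in all 4 lists. Its fold enrichment was 8.49 and 7.99 in the RUNX1 lists labelled +DOX and -DOX, at percentiles 80.3 and 77.8. In the H3K27me3 lists titled untreated and titled DOX it was 13.5 and 10.8, at percentiles 94.0 and 92.5. Of the 200 bp at its summit 95% were repeat-masked in the reference, beside a median of 6.75% for the 50 sites. Its long run of G is visible in the sequence printed for it. Over the genome, 860 sites (3.44%) were likewise in both RUNX1 lists and under peaks of both H3K27me3 lists. What part the repeat or the run of G has in these values was not tested.

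Beyond the 10 genes, 48 other genes of the pathway were counted in the same way. A RUNX1 peak within 1500 bp of a start was found for 28 of 48 in the list labelled +DOX and for 25 of 48 in the list labelled -DOX. Over all protein-coding genes the shares were 46.9% and 43.4%. Of the kinases and their partner proteins 6 of 7 and 7 of 7 had such a peak. They include Chuk and Ikbkb, the IkB kinases, and Map3k7, which encodes TAK1. The further inhibitors had it at 9 of 10 and 7 of 10, among them Nfkbib, Nfkbiz, Cyld, Otulin, Tnip1 and Tax1bp1 in both lists. Receptors and adaptors had it at 11 of 19 and 9 of 19. The further targets had it at 2 of 12 in each list: Sod2, a mitochondrial superoxide dismutase, in both, Ptgs2 only in the list labelled +DOX and Il1b only in the list labelled -DOX.

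There were 0 RUNX1 sites in the windows of 7 of the 48 genes (14.6%), beside 22.0% of all protein-coding genes. The 7 were Il1r1, Tlr2 and Tlr4 of the receptors and adaptors and Il6, Ccl2, Vcam1 and Cd83 of the further targets, while others of these lists had sites, such as Tnfrsf1a with 3 and Icam1 with 4. By number of sites Ltb led with 10, and Lta, Tradd and Traf2 had 8 each. The windows of Lta and Ltb overlap that of Tnf and share its sites. Tnip1, which encodes an A20-binding inhibitor, had 5 sites, all in both lists. The windows with the highest ranked peaks were those of the neighbours Birc2 and Birc3, which encode the cellular inhibitors of apoptosis, at percentile 98.8 in the list labelled +DOX and 98.2 in the list labelled -DOX. Of the 159 sites in the windows of the 48 genes, 88 (55.3%) were in both lists, 51 (32.1%) only in the list labelled +DOX and 20 (12.6%) only in the list labelled -DOX, near the 56.8%, 28.4% and 14.8% of all RUNX1 sites. For H3K27me3 a peak within 1500 bp of a start was found only at Cd83 in both lists and at Tradd in the list titled DOX. That is 1 of 48 and 2 of 48, beside 11.7% and 11.1% of all protein-coding genes.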

How the data were processed

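RUNX1 ChIP-seq (1 library with and 1 without Doxycycline) and 2 libraries labelled H3K27me3 were analysed from the peak lists. Per the paper's methods, RUNX1 reads were trimmed, aligned to mm10 and freed of PCR duplicates, and MACS2 called peaks in each library with 0.05 as the q-value limit. The submitters' processing notes name Bowtie2 2.2.9 and MACS2 2.1.1. No input control is named, the processing of the H3K27me3 libraries is not described, and the lists may precede the filters against blacklist and repeats. The values the authors deposited with a peak are a ratio (fold enrichment over local background), a -log10 p-value and a -log10 q-value. Depth is unknown, and conditions came from the labels.

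Peaks outside the autosomes, X and Y, 146 to 300 per list, were left out. Windows, starts and annotations came from GENCODE vM21. Summits were extended by 200 bp and merged, and a site took its class from the lists with a summit in it. Consensus motifs were counted on either strand. The work used Python 3.11.15, numpy 2.4.6 and matplotlib 3.10.9. The scripts were tested on simulated data. With 1 library per condition no test was made and leaving out a replicate was not possible.

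The 10 genes, the pathway and marker lists and the rules were chosen with earlier results of these data known. All 10 genes were named. Of the other pathway genes, those with at least 5 sites or with a peak in the top 5% of either list could be named, and neighbours where a site lay in them or nearer to their start. Ptgs2, Il1b, Sod2, Cd83, Ikbkb, Map3k7, Nfkbiz, Cyld, Il1r1, Tlr2, Tlr4, Il6, Ccl2, Vcam1, Tnfrsf1a and Icam1 fall outside that rule and were named after their values were seen. The alternatives changed the flank, the extension, the rule for overlap, the minimum -log10 q, the list lengths, the nearest-start rule, the start distance, the motif window and the labels of the libraries. TEAD4, DNase1 and tag-count data were not analysed here, and 1 result is not reported here.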

Additional observations from a re-analysis of the deposited data

How the results depend on the processing

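The 10 genes had a RUNX1 peak at a start in 8 cases in each list, and in 7 at a limit of 500 bp and 9 at 5000 bp. Among peaks whose -log10 q reached 10 it was 3 in each list. The share of all protein-coding genes was taken at 1500 bp only (46.9% and 43.4%). The counts at the other settings therefore have no genome share beside them and do not show whether the contrast holds there. The counts of peaks and sites depend on the window, as they must by its construction. With a flank of 10 kb in place of 50 kb, the peaks were 20 and 14 in the RUNX1 lists labelled +DOX and -DOX and 3 and 4 in the H3K27me3 lists titled untreated and titled DOX, and 14 sites were shared, 4 only in the list labelled +DOX and 0 only in the list labelled -DOX. With 100 kb, the peaks were 80, 64, 21 and 23 and the sites 52, 25 and 10. At that same minimum of 10, the peaks were 17, 15, 4 and 3 and the sites 12, 5 and 3. Peaks whose nearest start was that of an NF-kB gene were 11, 8, 1 and 1, with sites of 8, 1 and 0, and by the nearest coding start the peaks were 17, 11, 2 and 2. With lists of equal length, 6 sites were only in the list labelled +DOX, and with the libraries exchanged 6 were only in the list then called +DOX and 14 only in that called -DOX. A motif window of 100 bp gave 1 RUNX site (2.0%, beside 9.63% of all RUNX1 sites) and 9 short RUNX sites (18.0%, beside 25.5%). It gave 9 ETS sites (18.0%, beside 18.1%), 1 PU.1 site (2.0%, beside 2.82%) and 1 AP-1 site (2.0%, beside 2.76%). The higher ETS and PU.1 shares of the 200 bp window were thus not seen at 100 bp. A window of 400 bp gave 8 κB (16.0%, beside 6.44%), 6 RUNX (12.0%, beside 18.1%) and 4 AP-1 sites (8.0%, beside 7.81%). The other 39 values stayed within 1.5 times the reported count. Under each alternative the shared sites outnumbered those of either list alone. A peak list holds no signal below its threshold, so a site of 1 list may be bound in both libraries, and without read counts or a repeat library the error of a fold or a rank is unknown.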

Other observations

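Many of the 50 RUNX1 sites stood at starts of genes next to the NF-kB genes, and these included the strongest. At Clptm1, in the Relb window, fold enrichment was 10.9 at percentile 95.9 in the list labelled +DOX and 11.8 at percentile 96.8 in the list labelled -DOX, higher than at any start of an NF-kB gene. Fbxl15, which encodes an F-box protein, had percentiles 88.3 and 82.1 in the Nfkb2 window, 66 bp from its start. Prrc2a had 77.4 and 71.3 in the Tnf window. Clasrp, at the 3′ side of Relb, had 68.0 and 77.6, and Ddx39b, an RNA helicase of mRNA export, had 65.6 and 74.7.

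At Hsp90ab1, a cytosolic chaperone gene in the Nfkbie window, the lists had summits in separate merged sites. A summit in the 5′ UTR, 31 bp from a start, was only in the list labelled +DOX, with fold enrichment 5.45 at percentile 77.9. A summit 71 bp upstream of another start was only in the list labelled -DOX, with fold enrichment 4.57 at percentile 59.2, and a further one 634 bp away at percentile 24.3. The first 2 of these sites were overlapped by a peak of the other list, so a class taken from summits here divided what overlapping peaks would join. In Slc35b2, which encodes a sulfate-donor transporter, a site only in the list labelled +DOX at percentile 10.9 was overlapped in the same way.

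Of the sites with a summit in 1 list that no peak of the other list overlapped, the highest were a site in a Manba intron, only in the list labelled +DOX, with fold enrichment 7.25 at percentile 69.5, and one in a Sipa1 intron in the Rela window, only in the list labelled +DOX, at percentile 64.9. A second site in Sipa1, 79 bp from a start, was only in the list labelled -DOX, at percentile 41.7. In all 3 the libraries would trade places if exchanged.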
